A study of Mus musculus with 16 samples.

Results

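The proteasome genes were chosen as the protein-coding genes whose symbol begins with Psma, Psmb, Psmc, Psmd, Psme or Psmg followed by a digit. The rule gave 50 genes of 39418 in the bone and muscle tables together, of which all 50 were analysed in cortical bone and 48 in tibialis anterior (TA) muscle. Psma8 and Psmb11 were analysed in bone only. Female C57BL/6 mice, 18 months old when treatment began, received BAY2416964 (BAY), an antagonist of the aryl hydrocarbon receptor (AhR), at 30 mg/kg by oral gavage on 5 days per week for 8 weeks, or the vehicle alone (VEH: ethanol, Solutol and water) on the same schedule. AhR is a transcription factor activated by small molecules, and the question was what blocking it changed in muscle and bone of aged mice. RNA was sequenced from 4 mice per group and tissue, 16 libraries in all, from 1 TA per mouse and from cortical shafts that had been digested with collagenase after the marrow cells were taken, and levels are given in CPM, the reads of a gene scaled to a fixed total of reads on genes.

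The proteasome is the protease that degrades proteins tagged with ubiquitin. Its barrel-shaped core is built from rings of alpha (Psma) and beta (Psmb) subunits, the beta rings hold the protein-cutting sites, and a regulatory cap of ATPases (Psmc) and non-ATPases (Psmd) recognizes, unfolds and feeds in the substrate. In cells exposed to interferon the standard cutting subunits Psmb5, Psmb6 and Psmb7 are replaced by Psmb8, Psmb9 and Psmb10, which gives the immunoproteasome that makes peptides for MHC class I, while the Psme proteins are alternative activators. In skeletal muscle the proteasome is known as a main route of protein breakdown during atrophy. The symbol rule also took in Psmc3ip, which acts in meiotic recombination, Psme3ip1, which binds an activator, and Psme2b, a single-exon copy of Psme2. These 3 are not subunits and are counted apart by role.

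Muscle libraries held 6131920 to 9262359 reads on genes and bone libraries 930307 to 6951919, so that 3 reads, the floor used here, stood at 0.324 to 0.489 CPM in muscle and 0.432 to 3.22 CPM in bone. Skeletal muscle fibre markers summed to 102677 to 175581 CPM in the muscle libraries. In bone they summed to 48.0 to 8835 CPM in VEH and 91.8 to 36538 CPM in BAY, while osteoblast and osteocyte markers summed to 1537 to 31576 CPM in VEH and 1821 to 23546 CPM in BAY. In bone all 10 fibre markers were higher in BAY (median log2 fold change 3.42), as were 80.9% of all genes, and all 10 osteoblast and osteocyte markers were lower (-1.19). At an unadjusted P under 0.05 were 0 of either list, against 0.64% of all genes. With 1 library left out these counts ran from 0 to 10 and from 0 to 2. One muscle library stood apart, VEH replicate 3, whose column name marks it as a replacement: its adipocyte markers summed to 342 CPM against 38.9 to 57 CPM in the other muscle libraries, its osteoblast and osteocyte markers to 234 CPM against 59.2 to 91.7 CPM, and its leukocyte markers to 41.9 CPM against 9.49 to 24.8 CPM. Of 7 adipocyte markers 3 were lower in BAY muscle at an unadjusted P under 0.05, against 3.07% of all genes, and the count was 0 without VEH replicate 3 and 7 without VEH replicate 2. Of 6 osteoblast and osteocyte markers and of 8 leukocyte markers 0 had a P under 0.05. The 6 were all below 0, with a median log2 fold change of -0.37, which became 0.091 without VEH replicate 3. Their part in the proteasome results was not tested. The count of proteasome genes called in muscle and the genes named with a call are therefore also given without it. In a bulk tissue, fewer cells of a type and less RNA per cell cannot be told apart.

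Upstream sequence was searched for the AhR motif because BAY blocks AhR. The core of the xenobiotic response element, GCGTG on either strand, was present between 250 bases before and 50 bases after the annotated start of 23 of the 50 proteasome genes (46%) and of 37.0% of 21770 coding genes. Of the 4 genes with an unadjusted P under 0.05 in muscle, Psma1, Psmb7 and Psmd5 held it and Psmd4 did not, and all 3 inducible cutting subunits held it. The stretches below, from GRCm39 and the gene's strand, show it in capitals in the genes for which a stretch free of annotated exons was at hand, namely Psmb7 (chr2:38534200-38534259), Psma1 (chr7:113875473-113875532), Psmb8 (chr17:34416530-34416589) and Psmb10 (chr8:106665098-106665157). All but Psmb8 lie on the minus strand, and CACGC is the same motif read on the other strand.
Psmb7: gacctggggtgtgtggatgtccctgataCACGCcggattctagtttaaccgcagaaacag
Psma1: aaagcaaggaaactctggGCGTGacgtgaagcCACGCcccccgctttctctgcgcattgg
Psmb8: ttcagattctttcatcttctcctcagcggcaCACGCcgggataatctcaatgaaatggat
Psmb10: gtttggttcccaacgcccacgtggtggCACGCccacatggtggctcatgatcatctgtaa

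The other standard cutting subunits held the core of the antioxidant response element, TGACNNNGC, which the factors Nfe2l1 and Nfe2l2 recognize. It was present in 8 of the 50 windows (16%) and in 12.5% of all windows. In Psmb5 (chr14:54855482-54855541, minus strand) and Psmb6 (chr11:70416123-70416182, plus strand) the match, in capitals, lay within the 60 bases before the start.
Psmb5: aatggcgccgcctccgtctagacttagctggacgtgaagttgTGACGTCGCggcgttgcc
Psmb6: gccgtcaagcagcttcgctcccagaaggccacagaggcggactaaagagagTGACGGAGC
The core of the interferon-stimulated response element was present in 7 of the 50 windows (14%), Psmd4 among them, and in 3.84% of all windows. It was not found in those of Psmb8, Psmb9 and Psmb10. A match is a description of these letters and not a bound site.

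In TA muscle the standard proteasome was well expressed and the immunoproteasome was low, with 2 to 29 reads per library for each of its 3 inducible subunits. The 48 genes summed to 1132, 1230, 1344 and 1019 CPM in VEH replicates 1 to 4 and to 1129, 1128, 1088 and 1233 CPM in BAY replicates 1 to 4. The groups overlapped, and the highest sum was that of VEH replicate 3.

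Levels were compared between genes per kilobase of coding sequence, and again per kilobase of the whole annotated transcript, because several genes (Psmb1, Psmb2, Psma2, Psma3, Psme1 and Psme3) carry annotated transcripts several times longer than their coding part. On both scales Psmd4, the ubiquitin receptor of the cap, was the most abundant in VEH muscle, at 67.8 CPM per coding kilobase, followed within the cap's non-ATPases by Psmd7, a scaffold of the deubiquitinase module, at 63.2. Psmd14, the deubiquitinase itself, was lowest of that role at 10.1 CPM per coding kilobase. Among the cap's ATPases Psmc3 stood at 51.5 CPM per coding kilobase and the other 5 between 19.1 (Psmc2) and 23.6 (Psmc6). The alpha ring ran from 7.65 for Psma5 to 32.4 for Psma4 per coding kilobase, whereas per transcript kilobase Psma7 was the highest (21.4) and Psma3 the lowest (2.8). The assembly chaperones, which are needed only while the particle is built, ran from 1.78 for Psmg1 to 9.91 for Psmd9 per coding kilobase. Per transcript kilobase they ran from 1.20 for Psmd10 to 2.92 for Psmg3.

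**Figure D1:**
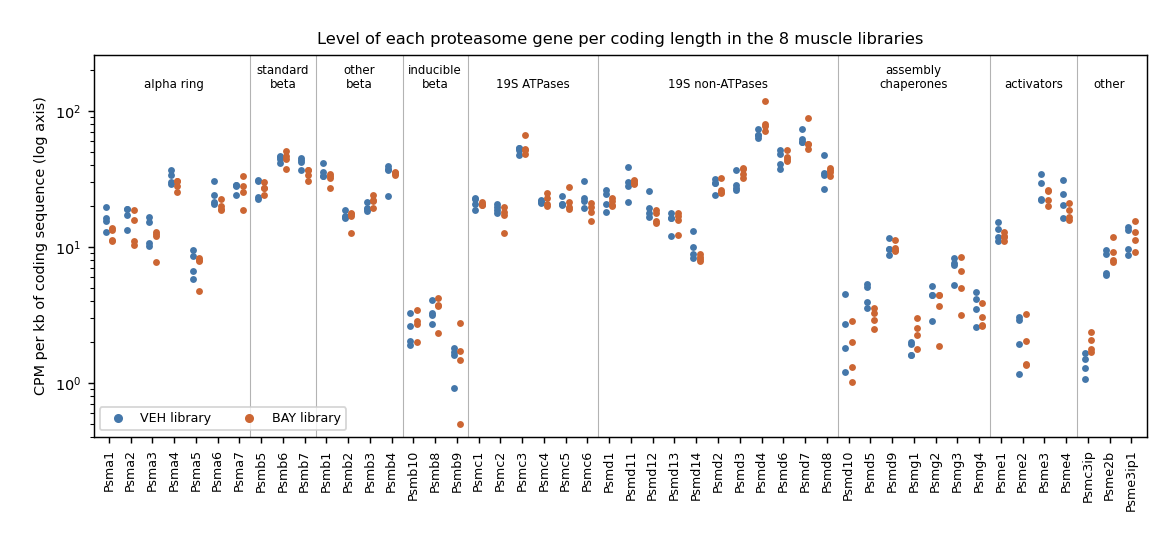
CPM per kilobase of coding sequence (log axis) of each of the 48 proteasome genes in each VEH and BAY muscle library, by role. The cap genes Psmd4, Psmd7 and Psmc3 are at the top, and the inducible beta subunits, the assembly chaperones, Psme2 and Psmc3ip are at the bottom.

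The standard cutting subunits Psmb5, Psmb6 and Psmb7 stood at 26.8, 44.7 and 41.8 CPM per coding kilobase in VEH muscle. Their inducible counterparts were far lower: Psmb8 at 3.30, Psmb9 at 1.5 and Psmb10 at 2.46. The lowest genes on both scales were Psmc3ip (1.37 per coding kilobase) and Psmb9. Of the other core beta subunits, Psmb2 was the lowest (17.1) and Psmb1 the highest (35.9) per coding kilobase, although Psmb4 was the highest per transcript kilobase (22.9). Of the activators, Psme2 was the lowest (2.26) and Psme3 the highest (27.1) per coding kilobase, while per transcript kilobase Psme4 was the highest (19.7).

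The treatment comparison in muscle left no proteasome gene past an adjusted threshold. By limma on the deposited log2 CPM of all 21011 genes, 4 of the 48 genes (8.33%) had an unadjusted P under 0.05, against 9.79% of all genes tested. Of these, 3 were lower in BAY (3.07% of all genes were) and 1 was higher (6.71% of all genes were). None passed the study's threshold of P under 0.05 with a change of at least 2-fold, which 510 genes (2.43%) passed in this fit. The study applied that threshold to a limma-voom fit, so 510 is not its own count. None passed Benjamini-Hochberg adjustment, which 0 of all genes passed. Without VEH replicate 3 the count of the 48 genes with an unadjusted P under 0.05 was 0. With median centring or quantile normalization it was 7, all lower, where 5.91% and 6.14% of all genes were lower.

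Psmd5, a chaperone that holds the base of the cap during its assembly, had the lowest P. Its level was 5.35, 8.09, 7.67 and 5.96 CPM in VEH replicates 1 to 4 and 4.40, 5.38, 3.74 and 4.91 CPM in BAY replicates 1 to 4. Of the BAY libraries 3 lay below every VEH library, and BAY replicate 2 lay just above the lowest VEH library. The log2 fold change was -0.55 ± 0.22 (SE, n = 4 per group, exact permutation P = 0.0571, limma adjusted P = 0.444), and without VEH replicate 3 it was -0.48, with an unadjusted P just above 0.05.

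Psmb7, the standard subunit with trypsin-like activity, stood at 34.8, 36.5, 37.2 and 30.4 CPM in VEH and 27.9, 30.5, 30.5 and 25.4 CPM in BAY. BAY replicates 1 and 4 lay below every VEH library, and BAY replicates 2 and 3 lay just above the lowest VEH library. The log2 fold change was -0.28 ± 0.12 (SE, n = 4 per group, exact permutation P = 0.0857, limma adjusted P = 0.487), and without VEH replicate 3 it was -0.25, with an unadjusted P above 0.05. Psmb7 had fractional read numbers in all 8 muscle libraries, whose source was not tested, and its level is uncertain.

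Psma1, a subunit of the alpha ring, stood at 12.9, 12.1, 15.5 and 10.1 CPM in VEH and 10.9, 10.4, 8.77 and 8.83 CPM in BAY. The highest value was that of VEH replicate 3, and VEH replicate 4 lay between the BAY libraries. The log2 fold change was -0.37 ± 0.17 (SE, n = 4 per group, exact permutation P = 0.0857, limma adjusted P = 0.501), and without VEH replicate 3 it was -0.27, with an unadjusted P above 0.05.

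Psmd4 was the one gene of the 4 with higher values in BAY. It stood at 71.9, 83.7, 75.0 and 75.4 CPM in VEH and 87.9, 90.5, 80.9 and 134 CPM in BAY. One BAY library was far above the others, and BAY replicate 3 lay below the highest VEH library. The log2 fold change was 0.34 ± 0.15 (SE, n = 4 per group, exact permutation P = 0.0571, limma adjusted P = 0.499), and it was 0.18 without BAY replicate 4 and 0.33 without VEH replicate 3, each with an unadjusted P above 0.05. BAY replicate 4 also had the highest sum of muscle fibre markers, 175581 CPM against at most 129451 CPM in the other muscle libraries, and the part of that in Psmd4 was not tested.

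**Figure D2:**
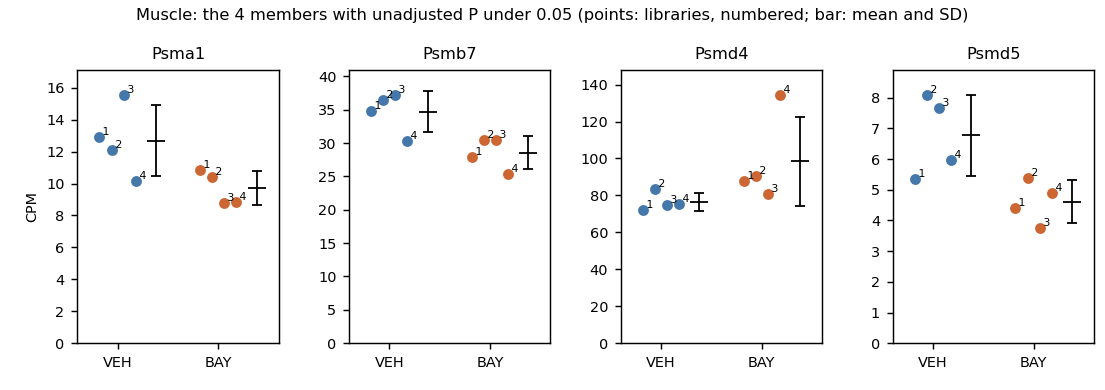
CPM of Psma1, Psmb7, Psmd4 and Psmd5 in each muscle library (numbered points), with the mean and SD of each group of 4. The VEH and BAY points of each gene overlap, and Psmd4 in BAY replicate 4 (134 CPM) stands far above the other libraries.

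By role, the alpha ring and the activators lay on one side of 0. All 7 alpha genes had a log2 fold change below 0, from -0.37 to -0.078 with a median of -0.22, where 44.8% of all genes lay below 0, and the 7 were also below 0 without VEH replicate 3, with a median of -0.14, while 6 of 7 were without VEH replicate 2, BAY replicate 1 or BAY replicate 3. Averaged over the 7 genes, each library's deviation from the gene means was 0.081, 0.20, 0.25 and -0.099 on the log2 scale in VEH and -0.049, 0.059, -0.28 and -0.17 in BAY. VEH replicate 4 lay below 2 of the BAY libraries. The 4 activators were all below 0 in every setting tried, with a median of -0.18, but the median was -0.044 without VEH replicate 3, the library in which their mean deviation was 0.51.

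The direction of the cap genes depended on single libraries. Of its 6 ATPases, 3 were above 0 and 3 below, with a median of -0.004, and of its 11 non-ATPases 6 were above and 5 below, with a median of 0.0073. Without BAY replicate 4 all 6 ATPases were below 0, with a median of -0.057, and without VEH replicate 4 the non-ATPases were 2 above and 9 below, with a median of -0.11, whereas without VEH replicate 3 they were 8 above and 3 below. The members with the next lowest P were in opposite directions, Psmc6, an ATPase (log2 fold change -0.33, exact permutation P = 0.0857, limma adjusted P = 0.528), and Psmd3, a structural non-ATPase (0.27, exact permutation P = 0.0857, limma adjusted P = 0.538). Psmc6 had an unadjusted P under 0.05 in 5 of 17 other settings and was -0.20 without VEH replicate 3, and Psmd3 had one in 2 of 17. Of the 7 assembly chaperones 5 were below 0, with a median of -0.28, which became -0.16 without VEH replicate 3 and -0.46 without VEH replicate 4. VEH replicate 3 had the highest mean deviation of that role, 0.41. Over all 48 genes 29 were below 0 and the median log2 fold change was -0.078, against 0.057 over all genes, and median centring of the libraries moved the split to 35 below and 13 above. The median of the 48 genes was -0.014 without VEH replicate 3, and -0.035, -0.042 and -0.033 without VEH replicate 2, BAY replicate 2 and BAY replicate 3.

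**Figure D3:**
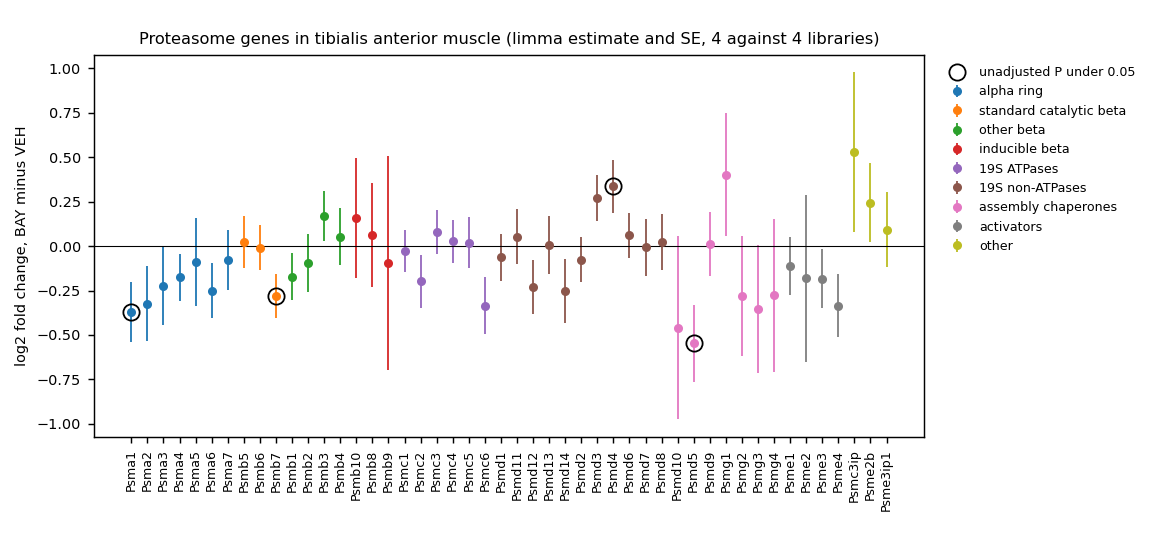
log2 fold change (BAY minus VEH) of each proteasome gene in muscle, as the limma estimate with its SE, by role. The 4 genes with an unadjusted P under 0.05 are ringed, and all 7 alpha ring genes lie below 0.

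The immunoproteasome in muscle did not differ detectably between the groups. Psmb8, the inducible chymotrypsin-like subunit, stood at 3.38, 2.23, 2.7 and 2.62 CPM in VEH and 3.03, 3.1, 1.94 and 3.51 CPM in BAY. Psmb9, the inducible subunit that replaces Psmb6, stood at 1.05, 1.12, 1.19 and 0.596 CPM in VEH and 0.963, 0.326, 1.81 and 1.12 CPM in BAY, where the lowest value is 2 reads. Psmb10, the inducible trypsin-like subunit, stood at 2.68, 1.67, 2.16 and 1.55 CPM in VEH and 2.20, 1.63, 2.32 and 2.8 CPM in BAY. For each of the 3 the groups overlapped, with log2 fold changes of 0.064 ± 0.29, -0.094 ± 0.60 and 0.16 ± 0.34 (SE, n = 4 per group) and exact permutation P of 0.743, 0.8 and 0.486.

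The exchange of subunits was examined within each library, as the log2 ratio of an inducible subunit to the standard one that it replaces, which does not depend on how the libraries are scaled. The Psmb8 to Psmb5 ratio in muscle was -2.96 ± 0.45 in VEH and -2.92 ± 0.25 in BAY (SD, n = 4, exact permutation P = 0.857), where Psmb5 had fractional read numbers in all 8 muscle libraries, as Psmb7 had. The Psmb9 to Psmb6 ratio was -5.06 ± 0.39 in VEH and -5.15 ± 1.14 in BAY (SD, n = 4, exact permutation P = 0.971). The Psmb10 to Psmb7 ratio was -4.14 ± 0.32 in VEH and -3.69 ± 0.43 in BAY (SD, n = 4, exact permutation P = 0.171). Adjusted over the 6 ratios of both tissues each of these was 1. With 4 against 4 libraries the smallest exact two-sided P is 0.0286.

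**Figure D4:**
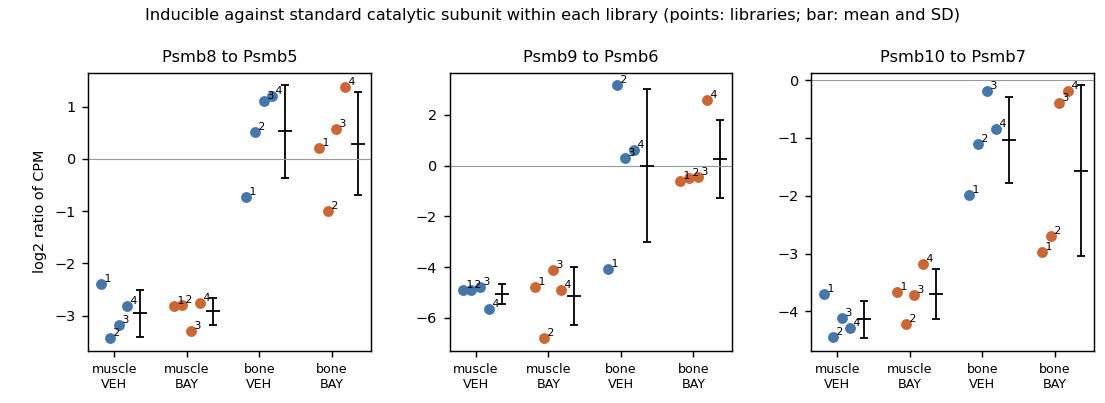
log2 ratio of CPM of each inducible to its standard cutting subunit in each library (numbered points), with the mean and SD of each group of 4, in muscle and bone. VEH and BAY overlap in every panel, the muscle ratios are below -2, and the bone ratios spread widely.

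In the list of genes for MHC class I peptide loading, which act on the peptides that the immunoproteasome makes, 3 of 10 genes were higher in BAY muscle at an unadjusted P under 0.05 and 0 were lower, against 6.71% and 3.07% of all genes. Their median log2 fold change was 0.29, and it was 0.19 without BAY replicate 4 or without VEH replicate 4 and 0.45 without VEH replicate 3. Without VEH replicate 3 the count was 5 higher and 0 lower, and in each of the 16 other settings, chosen for this list after seeing the data, it was 3 and 0. Tap1, a subunit of the transporter that carries peptides to MHC class I, stood at 1.75, 1.67, 2.7 and 1.91 CPM in VEH and 3.30, 5.71, 3.87 and 6.31 CPM in BAY. The groups did not overlap, as for 5.73% of all genes. The log2 fold change of Tap1 was 1.23 ± 0.30 (SE, n = 4 per group, exact permutation P = 0.0286, limma adjusted P = 0.275), and without VEH replicate 3 it was 1.39. The others were Nlrc5, the transactivator of MHC class I genes (1.03 ± 0.31, SE, limma adjusted P = 0.328), and H2-K1, a class I heavy chain (0.60 ± 0.19, SE, limma adjusted P = 0.342). Without VEH replicate 3 the log2 fold changes of Nlrc5 and H2-K1 were 1.04 and 0.74. Tap1, Nlrc5 and H2-K1 each kept an unadjusted P under 0.05 in all 17 settings tried. Of the 10 interferon response genes only Irf1, an interferon-induced transcription factor, had a P under 0.05 (0.46 ± 0.21, SE, limma adjusted P = 0.50). Its P was under 0.05 in 4 of 17 other settings, the one without VEH replicate 3 (0.50) among them, and it had fractional read numbers in 6 muscle libraries. For the 10 interferon response genes the count was 2 higher and 0 lower without BAY replicate 3. Without VEH replicate 2 or BAY replicate 2 it was 0 higher and 1 lower.

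Tap1 and Psmb9 lie head to head on chromosome 17 in the mm39 build, Psmb9 at chr17:34400961-34406738 and Tap1 at chr17:34406527-34416199, with Psmb8 next to Tap1 at chr17:34416695-34420428. These coordinates are those of the deposited tables. GENCODE M39, a different annotation in which Tap1 begins further upstream, has 743 bases in exons of both Psmb9 and Tap1, on opposite strands. Whether reads were assigned by strand is not given in the sources used here, so that reads from that stretch may have counted for either gene. Tap1 and Psmb9 each had fractional read numbers in 0 libraries of muscle and of bone.

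Of 15 other proteasome genes and regulators analysed in muscle, 1 was higher and 1 lower in BAY at an unadjusted P under 0.05, against 6.71% and 3.07% of all genes. Without VEH replicate 3 the counts were 2 and 1, without VEH replicate 4 they were 1 and 2, and without VEH replicate 1, VEH replicate 2, BAY replicate 2 or BAY replicate 4 they were 0 and 1. The median log2 fold change was -0.059, and it was 0.081 without VEH replicate 3 and -0.14 without VEH replicate 1 or without VEH replicate 4. Usp14, a deubiquitinase that sits on the cap and trims ubiquitin chains, stood at 14.4, 15.4, 18.1 and 11.3 CPM in VEH and 9.19, 10.2, 8.98 and 5.36 CPM in BAY, so the groups did not overlap, as for 5.73% of all genes. Its log2 fold change was -0.83 ± 0.22 (SE, n = 4 per group, exact permutation P = 0.0286, limma adjusted P = 0.295), and without VEH replicate 3 it was -0.73. Usp14 and Adrm1 had fractional read numbers in all 8 muscle libraries, and their levels are uncertain. Adrm1, a ubiquitin receptor of the cap like Psmd4, stood at 23.4 to 28 CPM in VEH and 27.8 to 35.9 CPM in BAY, a log2 fold change of 0.30 ± 0.13 (SE, n = 4 per group, limma adjusted P = 0.475), with a P under 0.05 in 5 of 17 other settings, the one without VEH replicate 3 (0.30) among them. Nfe2l1, the transcription factor that raises proteasome genes when proteasome activity is short, stood at 376 to 522 CPM in VEH and 456 to 555 CPM in BAY (log2 fold change 0.22 ± 0.15, SE, limma adjusted P = 0.659).

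Of 12 genes for ubiquitin and substrate delivery, 0 were higher and 1 was lower at that P, again against 6.71% and 3.07% of all genes. The one was Rps27a, which encodes ubiquitin fused to a ribosomal protein, at 2.95 to 5.20 CPM in VEH and 1.87 to 2.25 CPM in BAY (log2 fold change -0.94 ± 0.28, SE, n = 4 per group, limma adjusted P = 0.319), and without VEH replicate 3 the change was -0.91. Its read numbers were fractional in 6 muscle libraries, and its level is uncertain. Without BAY replicate 3 the count for the 12 genes was 0 higher and 2 lower. It was the same with log2(CPM + 0.1), quantile normalization, a replicate block or voom on recovered reads.

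The groups overlapped for each of the 4 activators in muscle. Psme4, the largest activator and the proteasome gene with the highest CPM in every VEH muscle library, stood at 112, 136, 173 and 90.8 CPM in VEH and 115, 91.7, 103 and 86.7 CPM in BAY, with the highest value in VEH replicate 3 (log2 fold change -0.34 ± 0.18, SE, n = 4 per group, exact permutation P = 0.2, limma adjusted P = 0.564). It was -0.18 without VEH replicate 3, while its unadjusted P was under 0.05 with median centring, with quantile normalization and without VEH replicate 4 (-0.39, -0.39 and -0.49). Psme1 and Psme2, which form the interferon-inducible activator, stood at 8.23 to 11.4 and 0.830 to 2.19 CPM in VEH and at 8.26 to 9.54 and 0.964 to 2.29 CPM in BAY. Psme3, a nuclear activator, stood at 16.9 to 26.1 CPM in VEH and 15.3 to 19.996 CPM in BAY. Psme2 and its copy Psme2b both had fractional read numbers in 7 muscle libraries and their levels are uncertain. In all, 11 of the 48 genes had fractional read numbers in 5 or more muscle libraries, whose source was not tested.

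Psmc3ip, not a subunit, was the one gene of the 48 whose muscle groups did not overlap (2.08% against 5.73% of all genes). It stood at 1.07, 0.697, 0.972 and 0.835 CPM in VEH and 1.1, 1.34, 1.16 and 1.54 CPM in BAY. The closest VEH and BAY libraries differed by less than 1 read, and the log2 fold change of Psmc3ip was 0.53 ± 0.45 (SE, n = 4 per group, limma adjusted P = 0.705), with an unadjusted P under 0.05 in the fit without a trend.

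In cortical bone 0 of the 50 proteasome genes had an unadjusted P under 0.05 between BAY and VEH by limma on the deposited log2 CPM of 38933 genes, against 0.64% of all genes, and 0 of the 50 had groups that did not overlap, against 0.406% of all genes. With voom on recovered reads 1 gene, Psmb11, had such a P (2% of the 50, against 3.68% of all genes). With array weights, which let libraries differ in weight, 7 had one (14% against 2.31%), but in bone the estimate of the weights stopped before it converged, at 8.43 and 5.34 for BAY replicates 1 and 2 and at 0.0846 and 0.042 for VEH replicates 1 and 4. The 7 were Psma5, Psma6, Psmb6, Psmc1, Psmd2, Psme4 and Psmg1, all higher in BAY by at least 2-fold, of which Psma5, Psmc1 and Psmg1 were at 0 in a library. None of the 50 passed after adjustment, as for 0 of all genes. The median log2 fold change of the 50 genes was 0.27 and that of all genes 0.84. Without VEH replicate 2 the medians were 0.081 and 1.52, without VEH replicate 4 they were 0.52 and 1.27, without BAY replicate 3 they were 0.18 and 1.06, without BAY replicate 4 they were 0.33 and 0.55, and with array weights their order turned, at 0.18 and -0.33. Above 0 were 36 of the 50, against 80.9% of all genes, but 7 with median centring of the libraries and 19 with quantile normalization. Without VEH replicate 1 the split was 25 above and 25 below, with a median of -0.0036 for the 50 genes and -0.088 for all genes. The muscle fibre markers of bone BAY replicates 1 and 2 summed to 33352 and 36538 CPM, and their part in the comparison was not tested. Psma5, Psma8, Psmb2, Psmc1, Psmg1 and Psmg2 were at 0 in at least 1 bone library.

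The bone libraries differed among themselves more than the groups did. Reads on olfactory receptor genes, which are expressed in the nose, took 0.0513% of CPM in VEH replicate 1 but 2.92%, 0.544% and 2.24% in VEH replicates 2 to 4 and 1.20%, 1.03%, 1.04% and 3.52% in BAY replicates 1 to 4, against 0.00236% to 0.0033% in muscle. Their level per kilobase served as a yardstick within each library. Set against the olfactory receptor level per kilobase, the median proteasome gene stood 27.8 times higher in VEH replicate 1, but 0.556, 4.48 and 1.87 times in VEH replicates 2 to 4 and 2.01, 2.20, 3.14 and 0.717 times in BAY replicates 1 to 4. At or under the olfactory receptor level were 1 of the 50 genes in VEH replicate 1, 36 in VEH replicate 2 and 35 in BAY replicate 4, the shallowest libraries among the 8 together with VEH replicate 4, where 15 were.

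**Figure D5:**
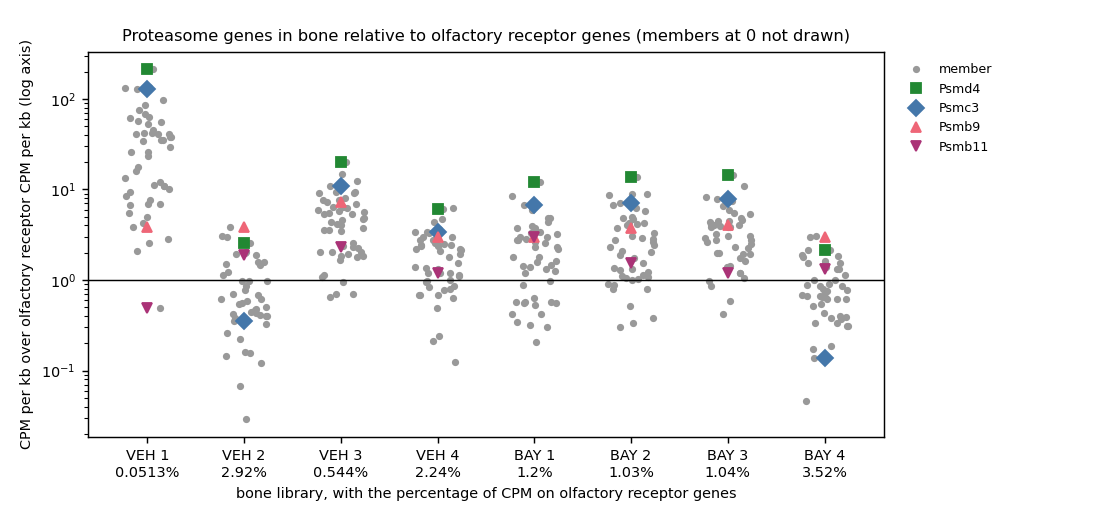
Level per kilobase of each proteasome gene in each bone library divided by that of the olfactory receptor genes (log axis), with Psmd4, Psmc3, Psmb9 and Psmb11 marked. Most genes lie far above 1 in VEH replicate 1 and below 1 in VEH replicate 2 and BAY replicate 4, while Psmb9 lies between 2.96 and 7.30 throughout.

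The genes followed this yardstick in opposite ways. Psmb11, the subunit of the thymus proteasome, stood at 0.288, 63.5, 14.5 and 30.6 CPM in VEH and 40.7, 18.2, 14.3 and 53.7 CPM in BAY. Its lowest value was in the library with the lowest olfactory receptor share and its highest were in the 2 with the highest, and its level per kilobase was 0.490 to 2.95 times that of the olfactory receptor genes. Psmb9 did the same, at 0.719, 41.4, 14.5 and 24.8 CPM in VEH and 13, 14.1, 15.3 and 38.7 CPM in BAY, as did Psmd5, at 1.73, 54.3, 13.1 and 40.8 CPM in VEH and 17.9, 24.8, 28 and 47.3 CPM in BAY. Psmc3, by contrast, stood at 28.8, 4.60, 26.2 and 33.5 CPM in VEH and 35.8, 32.3, 35.6 and 2.15 CPM in BAY, lowest in those same 2 libraries. The part of the olfactory receptor share in the bone comparisons was not tested, and leaving out VEH replicate 2 and BAY replicate 4 also gave 0 of 50 genes with a P under 0.05.

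Where the yardstick was lowest, in VEH replicate 1, bone had the same leading gene as muscle, and this was also the VEH bone library with the most muscle fibre RNA, whose markers summed to 8835 CPM against 48.0 to 209.6 CPM in the other VEH bone libraries. The part of that RNA in the order of the genes was not tested. Psmd4 stood 211 times above the olfactory receptor level per kilobase in that library, ahead of Psmd7 (137 times), Psmd6 (133 times) and Psmc3 (127 times), and the lowest were Psmb11 (0.490 times) and Psmd10, the oncoprotein gankyrin and an assembly chaperone (2.11 times). Psma8, the testis alpha subunit, held 7 reads there and 0 to 10 reads elsewhere. Over all libraries Psmd4 stood at 38.8, 26.7, 39 and 49.5 CPM in VEH and 52.3, 50.9, 54.0 and 26.9 CPM in BAY, with overlapping groups (log2 fold change 0.24 ± 0.53, SE, n = 4 per group, exact permutation P = 0.429, and -0.61 with median centring).

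The activator Psme4 had the lowest P in bone by limma. It stood at 23.3, 8.29, 33.0 and 52.4 CPM in VEH and 48.3, 55.0, 56.0 and 39.8 CPM in BAY. VEH replicate 4 lay within the BAY range and the other VEH libraries below it. The log2 fold change was 1.04 ± 0.64 (SE, n = 4 per group, exact permutation P = 0.0857, limma adjusted P = 0.887). It was 0.53 without VEH replicate 2 and 0.19 with median centring, and 1.90 with array weights, where the unadjusted P was under 0.05. The value was on the opposite side of 0 from muscle, and the difference between the tissues was not tested because their tables were scaled apart. Psme2 in bone was at 0.728 to 3.17 CPM in VEH and 1.79 to 7.89 CPM in BAY (log2 fold change 1.46 ± 1.52, SE, exact permutation P = 0.0857), with 1 to 10 reads per library. Psme1 and Psme3 had log2 fold changes of -0.16 ± 0.78 and 0.13 ± 0.67 (SE, n = 4 per group, exact permutation P of 0.8 and 0.8286).

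The level of the inducible cutting subunits relative to the standard ones varied widely between bone libraries. Per transcript kilobase Psmb8 stood at 49.9% to 259.8% of Psmb5, Psmb9 at 4.5% to 689% of Psmb6 and Psmb10 at 11.2% to 77.6% of Psmb7. In VEH replicate 1, the library with the lowest olfactory receptor share, all 3 were lower than their standard counterpart, at 60.5%, 4.5% and 22.2%. The same held in BAY replicate 2, where that share was 1.03%, at 49.9%, 54.2% and 13.6%. Psmb8 stood at 8.06, 7.36, 23.4 and 28.4 CPM in VEH and 7.60, 4.96, 31.6 and 14 CPM in BAY. The higher values were in VEH replicates 3 and 4 and BAY replicate 3, which also had the highest sums of leukocyte markers, 532, 1746 and 1250 CPM, against 139 to 341 CPM in the other 5. The same 3 had the highest sums of osteoblast and osteocyte markers, 31576, 23940 and 23546 CPM, against 1537 to 7699 CPM in the other 5, and the part of either set in the level was not tested. The Psmb8 to Psmb5 log2 ratio was 0.52 ± 0.89 in VEH and 0.29 ± 0.99 in BAY (SD, n = 4, exact permutation P = 0.714). The Psmb9 to Psmb6 ratio was 0.01 ± 3.01 in VEH, from -4.09 in replicate 1 to 3.17 in replicate 2, and 0.26 ± 1.55 in BAY (SD, n = 4, exact permutation P = 1). The Psmb10 to Psmb7 ratio was -1.03 ± 0.74 in VEH and -1.57 ± 1.48 in BAY (SD, n = 4, exact permutation P = 0.514). Adjusted over the 6 ratios each was 1, and the spread of the bone ratios was wider than any difference between the groups.

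The single genes of these pairs did not separate the groups of bone either. Psmb5, Psmb6 and Psmb7 had log2 fold changes of -0.076 ± 0.81, 0.58 ± 0.76 and 0.070 ± 0.66 (SE, n = 4 per group), with exact permutation P from 0.371 to 0.886. Psmb8, Psmb9 and Psmb10 had log2 fold changes of -0.31 ± 0.83, 0.83 ± 1.12 and -0.46 ± 1.05 (SE, n = 4 per group), with exact permutation P from 0.6 to 0.8286. Psmb11 had a log2 fold change of 1.53 ± 1.36 (SE, n = 4 per group, exact permutation P = 0.571), of 2.66 with voom, where the unadjusted P was under 0.05, and of 2.45 without VEH replicate 2, but of -0.15 without VEH replicate 1, where it held 2 reads, and of -0.30 with array weights.

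The related genes of bone gave no call by limma, where 0.64% of all genes had a P under 0.05. At an unadjusted P under 0.05 were 0 of 10 genes for MHC class I peptide loading (median log2 fold change -0.38), 0 of 10 interferon response genes (0.17), 0 of 15 other proteasome genes and regulators (0.34) and 0 of 12 genes for ubiquitin and substrate delivery (0.13). With 1 library left out, in an alternative chosen after seeing the data, these medians ran from -0.86 to 0.051, from 0.013 to 0.43, from -0.12 to 0.53 and from -0.13 to 0.36. Tap1, a transporter subunit, stood at 6.04, 65.4, 36.5 and 45.1 CPM in VEH bone and 36.2, 30.2, 49.4 and 60.2 CPM in BAY bone. Its lowest value was again in VEH replicate 1 and its highest values were in VEH replicate 2 and BAY replicate 4, so the groups overlapped (log2 fold change 0.58 ± 0.74, SE, n = 4 per group, limma adjusted P = 0.887).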

How the data were processed

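The members and the gene lists were chosen with earlier results of these data known. Per the labels and the study's methods, RNA was extracted with a Maxwell kit (muscle, stranded mRNA library) or TRIzol (bone), and sequenced on a NovaSeq, and the submitters' processing notes name Partek, STAR 2.7.8a and mm39. The study's methods also name the Partek E/M algorithm for counting the aligned reads per gene. Its part in the fractional read numbers was not tested. The authors deposited 1 table per tissue of log2 CPM per gene, with an offset of 0.0004 CPM in muscle and 0.0001 CPM in bone, subtracted here to recover CPM. Of the recovered values up to 50 reads, 81.5% to 88.6% were whole to within 0.02 reads. Gene and coding lengths came from canonical transcripts of GENCODE M39 and matched 99.4% and 98.9% of genes.

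BAY and VEH were compared with limma 3.58.1 (R 4.3.3, trend, two-sided, all genes of a table, Benjamini-Hochberg adjustment) and, for ratios and single genes, the exact two-sided permutation test (scipy 1.17.1). On simulated data, of 200 genes changed among 21011 in muscle 83% (2-fold) and 96% (4-fold) were recovered, and among 38933 in bone 10% and 29%. Each gene was simulated independently, and of the unchanged genes 5.32% (muscle) and 5.06% (bone) had P under 0.05. In the data 9.79% and 0.64% of all genes had one, so these recoveries need not hold there. Where a fit is of 4 mice per group, P-values measure the spread between these mice.

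Named are genes with limma P under 0.05, the cutting subunits and activators, the extremes of each role per length, genes at 0, those that are not subunits, and genes of the related lists with P under 0.05 that a result turns on. Psmc6, Psmd3, Psmd7, Nfe2l1 and, in bone, Psmd4 to Psmd7, Psmc3 and Tap1 were named after their values were seen. Alternatives were another offset, filter, scaling or spread model, a replicate block, and each library left out.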

Additional observations from a re-analysis of the deposited data

Results flagged for a closer look

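In 68 groups of 4 libraries tested, 6 had 1 library far from the others by Dixon's criterion, where chance flags about 1 in 20 groups. Of these, 4 were in bone BAY replicate 4, namely Psmb6 (6.45 CPM), Psmd4 (26.9 CPM), Psmb9 (38.7 CPM) and the Psmb9 to Psmb6 log2 ratio (2.58). This is the bone library with the highest olfactory receptor share, 3.52%. The other 2 were in muscle: the Psmb8 to Psmb5 log2 ratio of BAY replicate 3 (-3.30) and the Psmb9 to Psmb6 log2 ratio of VEH replicate 4 (-5.64), the latter resting on 5 reads of Psmb9.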

How the results depend on the processing

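In bone 3 reads are up to 3.22 CPM, and the part of depth in the bone results was not tested. The count of muscle genes with P under 0.05, 4, became 2 with log2(CPM + 1), log2(CPM + 0.1), a mean of at least 1 CPM or voom on recovered reads (Psmd4 and Psmd5 each time) or no trend (Psmd5 and Psmc3ip), 1 with array weights, 7 (all lower) with median centring or quantile normalization (14.6% of the 48, against 11.6% and 12% of all genes), 0 after adjustment, and 0 to 5 with 1 library left out: 0 without VEH replicate 3, 1 without VEH replicate 1 or BAY replicate 4, 2 without VEH replicate 2 (Psmd4 and Psmd3). Counting only genes lower in BAY, 5.91% of all genes had P under 0.05 with median centring and 6.14% with quantile normalization. Psmd5 had P under 0.05 in 14 of 17 settings, Psmb7 in 6, Psmd4 in 7 and Psma1 in 4, and none of these 4 genes changed sign. In bone the count of 0 became 1 with voom (Psmb11) and 7, all higher and past 2-fold, with array weights (2.31% of all genes), whose estimate did not converge, and was 0 in every other setting, libraries left out included. With voom, the approach that the study names, 2216 genes had P under 0.05 in muscle (25 adjusted) and 1433 in bone (0 adjusted).

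With a replicate block the muscle count was 3 (Psmc6, Psmb7 and Psmd5, all lower) and the bone count 0. Each mouse received either BAY or VEH, so the numbers cannot mark the same mice, and whether they mark a shared cage or batch was not tested. Deviations of same-numbered libraries correlated from -0.10 to 0.04 in muscle and -0.08 to 0.49 in bone. Not every library correlated best with its own number, but in bone the VEH and BAY libraries of replicate 3 did (0.49). For the ratios the block leaves the difference as it is by construction, and the exact sign-flip P, 0.125 to 1, cannot go below 0.125.

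Leaving out 1 library moved the BAY minus VEH difference in log2 ratio between -0.12 and 0.23 (Psmb8 to Psmb5), -0.43 and 0.46 (Psmb9 to Psmb6) and 0.27 and 0.62 (Psmb10 to Psmb7) in muscle, and between -0.65 and 0.20, -1.11 and 1.31, and -0.99 and -0.06 in bone. With 3 against 4 the smallest exact P is 0.0571. With CPM + 1 the muscle Psmb9 to Psmb6 difference became 0.018.

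Of the 50 genes in bone, 29 changed sign with median centring, 17 with quantile normalization, 16 with array weights, 6 with voom, 1 (Psma8) with log2(CPM + 1), and 4 to 17 with 1 library left out. Among genes whose log2 fold change is given above without P under 0.05, the sign turned in muscle for Psmb5 with median centring (-0.029) and quantile normalization (-0.025), for Psmb8 with quantile normalization (-0.023), and for Psmb9 with log2(CPM + 1) (0.0088), voom (0.0056) and array weights (0.042). In bone it turned with median centring for Psmd4 (-0.61), Psmb6 (-0.27), Psmb7 (-0.78), Psmb9 (-0.018) and Psme3 (-0.72), with quantile normalization for Psmb7 (-0.39) and Psme3 (-0.27), with array weights for Psmb5 (0.38), Psmb9 (-0.84), Psmb11 (-0.30) and Psme3 (-0.021), with voom for Psme1 (0.14), and, in an alternative chosen after seeing the data, without VEH replicate 2 and BAY replicate 4 for Psme1 (0.11) and Psme3 (-0.012). With 1 library left out, the log2 fold change ran from -0.059 to 0.10 (Psmb5), -0.071 to 0.076 (Psmb6), -0.040 to 0.25 (Psmb8) and -0.43 to 0.39 (Psmb9) in muscle, and from -0.48 to 0.19 (Psmb5), -0.13 to 0.25 (Psmb7), -0.80 to 0.087 (Psmb8), -0.44 to 1.51 (Psmb9), -0.94 to 0.017 (Psmb10), -0.15 to 2.45 (Psmb11), -0.60 to 0.14 (Psme1) and -0.19 to 0.44 (Psme3) in bone. The causes were not tested. Of 7 related muscle genes, refitted under the same settings after seeing the data, 0 changed sign.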
